A study of Mus musculus with 12 samples.

Results

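Loss of the SOXC transcription factors was compared with intact control cells in fibroblast-like synoviocytes of the mouse, which are connective tissue cells of the joint lining, while both kinds of cell were exposed to TNF. The comparison took the 6 libraries with TNF out of 12 in the series, 3 from knockout cells (SoxC_KO_TNF) and 3 from control cells (control_TNF). All cells came from mice described as SoxC. The knockout cells had received Ade5CMV-Cre, an adenovirus that delivers Cre recombinase, and the control cells Ade5CMV-eGFP, so control cells too had received an adenovirus. Both groups also had recombinant human TNF at 10 ng/mL for 16 h. The other 6 libraries are the same 2 kinds of cell without TNF (SoxC_KO and control). The labels do not state which part of each SOXC gene is deleted, nor whether a group's libraries are from different animals or dishes. All p-values therefore describe only the scatter among libraries, part of which may be technical. Of 53341 genes in the table, 17123 reached a normalized count of 10 in at least 3 of the 6 libraries and were compared. A normalized count is the number of read pairs of a gene after the submitters' scaling for depth.

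Sox4, Sox11 and Sox12 make up the SOXC group of the SOX family. Each encodes a protein that binds DNA through a high-mobility-group domain, recognises short AACAAT-like and AACAAAG-like motifs, and mostly activates transcription. The group is known from progenitor cells of the nervous system and skeleton, where Tead2 and the neuronal tubulin gene Tubb3 were reported among its targets. TNF is an inflammatory cytokine that acts in synoviocytes mainly through NF-kB and induces chemokines, cytokines and matrix-degrading enzymes. The study addressed which aspects of the TNF-regulated transcriptome depend on SOXC.

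Promoters of 3 genes that stood lower in the knockout libraries are shown because their levels differed in the same direction and 1 of them holds a letter match to a SOX motif. They come from RefSeq on GRCm38.p6, 5′ to 3′, and capitals mark a match to AACAAAG.
Tead2: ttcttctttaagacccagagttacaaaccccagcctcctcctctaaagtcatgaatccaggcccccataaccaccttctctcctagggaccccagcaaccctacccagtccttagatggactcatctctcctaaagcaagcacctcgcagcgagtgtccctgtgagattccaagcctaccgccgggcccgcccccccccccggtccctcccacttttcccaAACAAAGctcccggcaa
Mex3a: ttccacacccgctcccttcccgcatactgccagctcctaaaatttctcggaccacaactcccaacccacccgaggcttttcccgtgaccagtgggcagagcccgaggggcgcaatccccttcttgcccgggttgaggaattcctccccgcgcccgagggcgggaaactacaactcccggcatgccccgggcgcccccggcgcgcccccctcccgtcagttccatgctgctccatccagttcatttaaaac
Ctxn1: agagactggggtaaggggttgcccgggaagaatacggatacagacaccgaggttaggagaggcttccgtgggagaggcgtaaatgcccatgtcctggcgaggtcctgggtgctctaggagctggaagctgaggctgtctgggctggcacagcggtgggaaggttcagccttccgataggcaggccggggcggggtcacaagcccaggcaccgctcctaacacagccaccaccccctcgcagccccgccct
The Tead2 stretch is chr7:45215542-45215779 on the plus strand, and the first base of its AACAAAG lies 29 bases before the RefSeq start at 45215792. The deposited gene's own start in the reference annotation is 45215753, which puts the same match inside that gene model. The Mex3a stretch is chr3:88531696-88531945 on the plus strand and the Ctxn1 stretch is chr8:4259275-4259524 on the minus strand. Neither holds AACAAAG or AACAAT on either strand. The RefSeq start of Mex3a is 88531946, while the deposited gene's own start in the reference annotation is 88532395. So the Mex3a stretch does not adjoin that gene model. The Tead2 stretch has 238 bases and ends at 45215779, short of its RefSeq start, and those of Mex3a and Ctxn1 have 250 each. GC content is 57.6% in the Tead2 stretch, 64% in Mex3a and 64.4% in Ctxn1. Over stretches of up to 250 bases before the start of all 11407 compared genes with a promoter in that table, AACAAAG or its reverse complement CTTTGTT occurred in 4.27%, and AACAAT or ATTGTT in 6.77%. Both motifs begin with AACAA, but a match to one is not a match to the other. A match is a run of letters and says nothing of binding.

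Libraries differed in ways that the groups do not explain. Estimated depth of the 6 libraries ran from 8.14 M read pairs in SoxC_KO_TNF replicate 1 to 13.7 M in control_TNF replicate 2, with normalized totals of 19.6 to 22.2 M. The first principal component of the 6 held 58.7% of the variance and ran from -52.2 to 86.6, with control_TNF replicate 3 at 86.6, SoxC_KO_TNF replicate 3 at 34.8 and the other 4 at 7.34 or below. The fibroblast markers Thy1, Vim, Col1a1 and Cdh11 were high throughout, with Thy1 at 11005 to 15359 normalized counts, and the T-cell marker Cd3e was at 0 in 5 libraries and at 1.94 in SoxC_KO_TNF replicate 2. Macrophage markers summed to 1800 to 4417 in control_TNF and 2141 to 3753 in SoxC_KO_TNF and were highest in the 2 libraries numbered 3. The liver gene Alb (albumin), chosen with its values known, had 382 normalized counts in control_TNF replicate 2 and 2690 in SoxC_KO_TNF replicate 1, against 4.2 or less in the other 4. In SoxC_KO_TNF replicate 1 the 14 liver markers summed to 9170 normalized counts against 3988 to 5215 elsewhere, and the 16 skeletal muscle markers to 2104 against 667 to 852. The liver sum of control_TNF replicate 2 was within that range, at 4387. Its naming below as 1 of the 2 libraries with liver transcripts rests on Alb. Since these are bulk libraries, fewer cells of a type and less RNA per cell cannot be told apart.

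All 3 SOXC genes stood lower in every knockout library than in any control library with TNF. On GRCm38 (GENCODE M21) they lie at chr13:28948919-28953713 (Sox4), chr12:27334264-27342574 (Sox11) and chr2:152393611-152398063 (Sox12), all on the minus strand. Sox4 was at 1697, 3646 and 1625 normalized counts in the 3 control_TNF libraries and at 1020, 1086 and 601 in the 3 SoxC_KO_TNF libraries. The 2 groups did not overlap, and control_TNF replicate 2 stood well above the other controls. The means were 2323 ± 1146 and 902 ± 263 (SD, n = 3), so that the knockout mean was 38.9% of the control mean. Since the deleted part of each gene is not stated, such a percentage is no measure of how complete the deletion was. Sox12, the SOXC member described as the weakest activator, was at 278, 326 and 237 in control_TNF and 129, 159 and 86.5 in SoxC_KO_TNF, or 44.6% of control. Sox11, which is mostly silent in adult tissue, was at 194, 248 and 138 in control_TNF and 75.1, 105 and 29.5 in SoxC_KO_TNF, or 36% of control. SoxC_KO_TNF replicate 3 was the lowest library for all 3 genes.

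On the log2(normalized count + 1) scale, the difference of group means was -1.30 for Sox4 (SE 0.48), -1.60 for Sox11 (SE 0.67) and -1.19 for Sox12 (SE 0.33). A two-sided exact permutation test gave p = 0.1 for each gene, the smallest value that 3 libraries against 3 allow, and the limma adjusted p was 0.997 for each. With the replicate number as a block the adjusted p of each was 0.606, and the 3 genes ranked 1, 5 and 4 of 17123 by p, in the order Sox4, Sox11, Sox12. Leaving out 1 library at a time kept the log2 difference between -1.51 and -0.93 for Sox4, -1.97 and -1.08 for Sox11, and -1.39 and -0.95 for Sox12. Without the 4 libraries numbered 3 it was -1.24, -1.30 and -1.06 in that order, and without the 2 libraries with liver transcripts it was -1.04, -1.54 and -1.12. Per kilobase of transcript, Sox4 was the most abundant of the 3 in control_TNF at 484 normalized counts, against 63 for Sox12 and 23.3 for Sox11. In SoxC_KO_TNF the levels per kilobase were 188, 28.1 and 8.38 in the same order.

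**Figure D1:**
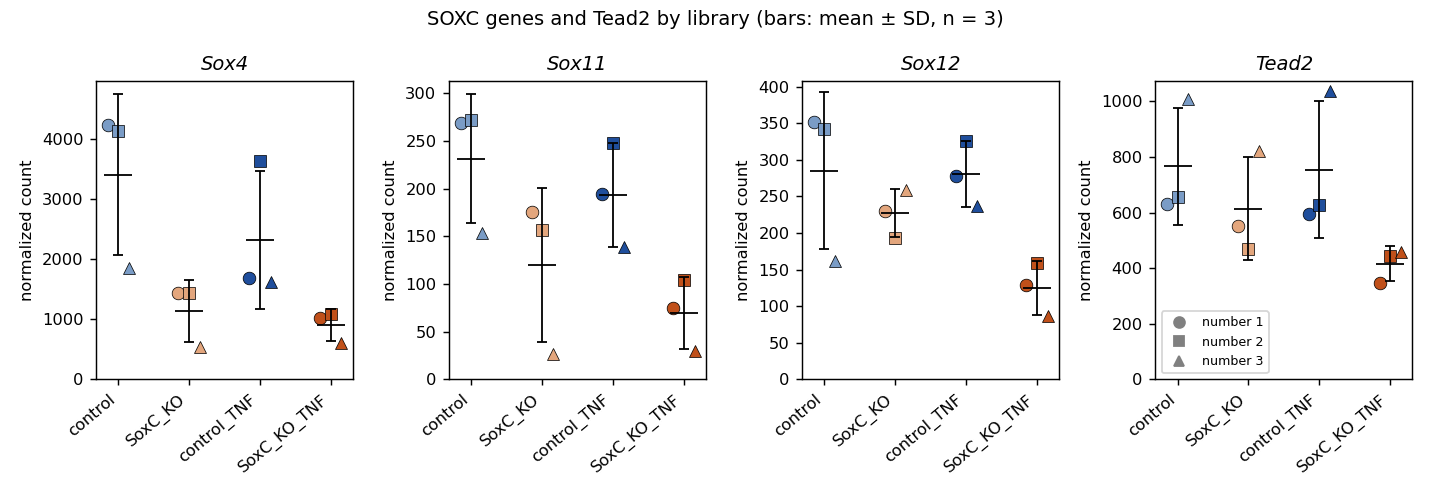
Normalized counts (linear axis from 0) of Sox4, Sox11, Sox12 and Tead2 in each of the 12 libraries by group, with points shaped by library number and bars giving the mean ± SD of 3 libraries. With TNF, the 3 SoxC_KO_TNF points lie below the 3 control_TNF points in all 4 panels, for Sox12 at 86.5 to 159 against 237 to 326.

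Sox4 overlaps a long non-coding gene on the opposite strand, Gm26735, and the labels do not state whether counting used strand. Gm26735, singled out after its values were seen, was listed at 0 in control_TNF replicate 2 and at 820 and 730 normalized counts in the other 2 control libraries, while the knockout libraries had 486, 486 and 295. The sum of both genes was 2517, 3646 and 2356 in control_TNF and 1506, 1572 and 896 in SoxC_KO_TNF. On that sum control_TNF replicate 2 stood less far from the other controls, and the groups still did not overlap.

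In the libraries without TNF, none of which enter the group means above, Sox4 was the only one of the 3 genes with no overlap. Sox4 was at 4238, 4143 and 1857 in control and 1432, 1433 and 548 in SoxC_KO, a log2 difference of -1.62. Sox11 was at 269, 272 and 153 in control and 175, 157 and 26.8 in SoxC_KO, a log2 difference of -1.29 with overlapping groups. Sox12 was at 352, 342 and 162 in control and 230, 194 and 259 in SoxC_KO, a log2 difference of -0.25 with overlapping groups. For Sox12 the knockout difference with TNF minus that without TNF was -0.94 on the log2 scale, and the limma interaction test gave an adjusted p of 0.877. For Sox4 and Sox11 the interaction was 0.31 and -0.30, with adjusted p of 0.900 and 0.930.

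Across the transcriptome no gene passed an adjusted p of 0.05. The limma test called 0 of 17123 genes lower (0%) and 0 higher (0%), with 119 lower (0.695%) and 82 higher (0.479%) at an unadjusted p under 0.05, and with the replicate block these were 620 and 472 with 0 called. Descriptive counts were therefore used. In 386 genes (2.25%) all 3 SoxC_KO_TNF libraries lay below all 3 control_TNF libraries, and in 470 (2.74%) all 3 lay above. Of the 20 ways to split 6 libraries into 3 and 3, 1 puts a given group wholly lowest. Both shares are below 1 in 20, so these counts alone show no excess of separated genes. All 3 differences between libraries of the same number were negative in 1734 genes (10.1%) and positive in 1770 (10.3%). The median log2 difference over all genes was -0.00. Groups that did not overlap, with a difference of at least 1.5-fold and a mean of at least 100 normalized counts in the higher group, were found for 34 genes lower (0.199%) and 20 higher (0.117%). A gene is called separated where the libraries of the 2 groups did not overlap, and the counts of each gene list stand against these shares.

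**Figure D2:**
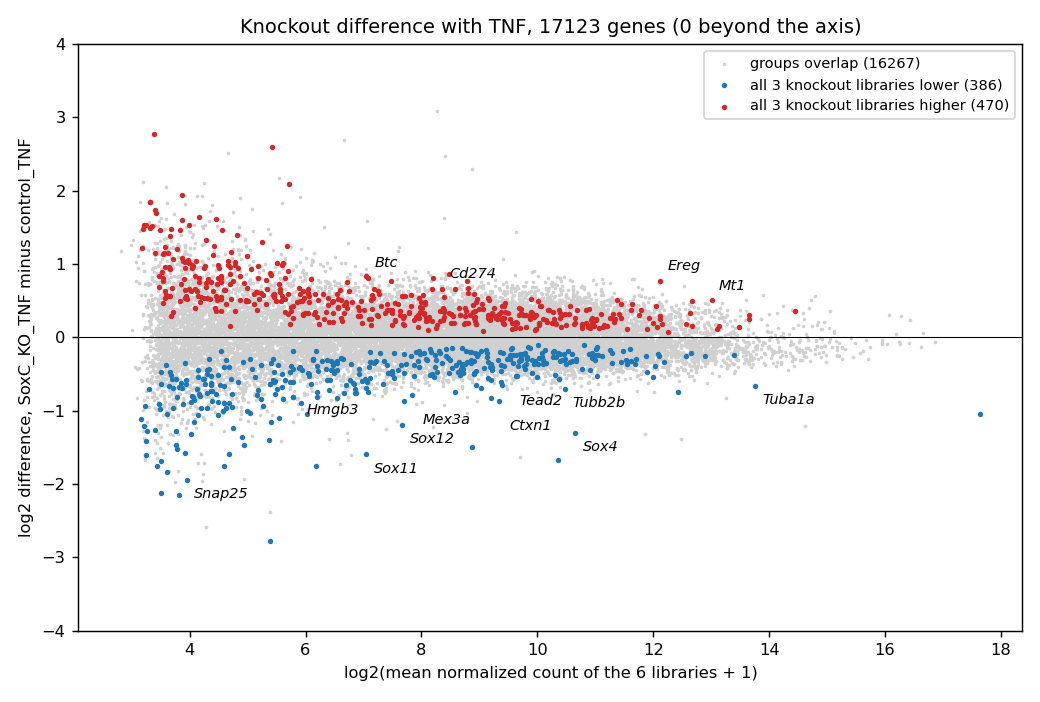
Log2 difference, SoxC_KO_TNF minus control_TNF, against log2 of the mean normalized count of the 6 libraries for 17123 genes, with genes coloured where the groups did not overlap (386 lower, 470 higher). Sox4, Sox11 and Sox12 lie at -1.30, -1.60 and -1.19.

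The 15 named lower genes with the smallest p were Sox4, Sox12, Hmgb3, Plppr3, Ctxn1, Evl, Rcor2, Tubb2b, Mex3d, Tuba1a, Tead2, Bcl2l12, Mex3a, Cenps and Arap3. They have roles in the cytoskeleton, in chromatin and RNA binding, and in signalling. Their log2 differences ran from -1.30 to -0.60, with a median of -0.71 and unadjusted limma p from 0.00373 to 0.0238. These values chose the genes and are given as a description. Numbered gene models were left out of the names by rule, among them Gm12896, singled out after its values were seen, with means of 1895 in control_TNF and 726 in SoxC_KO_TNF (log2 difference -1.68).

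Among them were 3 genes of the cytoskeleton. Tuba1a, an alpha-tubulin of growing neurites, was at 17582, 12768 and 20906 normalized counts in control_TNF and 11373, 11956 and 8760 in SoxC_KO_TNF, or 62.6% of control (log2 difference -0.66, SE 0.24). Tubb2b, a beta-tubulin of developing neurons, was at 1981, 1348 and 1964 in control_TNF and 1027, 1290 and 923 in SoxC_KO_TNF, or 61.2% (-0.70, SE 0.22). In both tubulin genes control_TNF replicate 2 was the lowest control and SoxC_KO_TNF replicate 2 the highest knockout, so the libraries numbered 2 differed by only -0.09 and -0.06. Evl, an actin regulator of the Ena/VASP family, was at 700, 570 and 659 against 357, 498 and 356, or 62.8%. Tubulin genes have near-identical copies, and the labels do not state how counting shared reads among them.

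Tead2, a DNA-binding partner of YAP and TAZ, was at 596, 628 and 1039 normalized counts in control_TNF and 345, 444 and 459 in SoxC_KO_TNF. The value in control_TNF replicate 3 was well above the other controls, and the groups were separated at 55.2% of control and a log2 difference of -0.82 (SE 0.30). Without the libraries numbered 3 the difference was -0.64. Ctxn1, which encodes a small membrane protein first found in brain cortex, was at 808, 712 and 989 against 428, 533 and 410, or 54.7% (log2 difference -0.87, SE 0.27). Hmgb3, a chromatin protein with high-mobility-group boxes, was at 173, 151 and 177 against 73.2, 117 and 114, or 60.6%.

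A pair of RNA-binding genes of the Mex3 family, Mex3a and Mex3d, were among them. Mex3a was at 331, 335 and 207 normalized counts in control_TNF and 177, 177 and 142 in SoxC_KO_TNF, or 56.8% (log2 difference -0.79, SE 0.29). Its difference was as large between the libraries numbered 2 (-0.92) as between those numbered 1 (-0.90). Mex3d was at 846, 763 and 788 against 445, 626 and 520, or 66.4%. The corepressor gene Rcor2 (59.8% of control), the membrane gene Plppr3 (62.1%), the kinetochore gene Cenps (58.7%), the apoptosis-related Bcl2l12 (65.9%) and the GTPase regulator Arap3 (66.7%) completed the set.

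Of the 15 higher genes, Ereg and Btc encode ligands of the EGF receptor. Ereg, the gene of epiregulin, was at 3396, 4642 and 2102 normalized counts in control_TNF and 5701, 5305 and 5468 in SoxC_KO_TNF, or 162% of control (log2 difference 0.77, SE 0.45). The 3 knockout libraries were close together and the controls spread. Btc, the gene of betacellulin, lies on the same chromosome 5 and was at 90.7, 108 and 92.3 in control_TNF against 171, 152 and 189 in SoxC_KO_TNF, or 176% (0.81, SE 0.35). Cd274, the gene of the immune checkpoint ligand PD-L1, was at 228, 311 and 214 against 328, 357 and 518, or 160% (0.66, SE 0.24). SoxC_KO_TNF replicate 3 was the highest library for Cd274, and without the libraries numbered 3 the difference was 0.36.

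Hpgd, which encodes the enzyme that inactivates prostaglandins, was at 129, 112 and 121 normalized counts in control_TNF and 203, 147 and 202 in SoxC_KO_TNF, or 152%. Ptgs2, the inducible cyclooxygenase that starts prostaglandin synthesis, was at 24283, 32118 and 13244 against 34288, 32435 and 21663, and its groups overlapped (log2 difference 0.41, SE 0.47). That difference was 0.09 after a correction for GC content and transcript length. Rarb, a retinoic acid receptor, was at 84, 72.8 and 64.9 against 121, 112 and 101, or 150%. Its 3 same-number differences lay close together, at 0.53, 0.61 and 0.63. The calcium-activated membrane protein gene Ano3 was at 280, 509 and 230 against 537, 513 and 582, or 160%. The cohesin acetyltransferase gene Esco1 was at 349, 398 and 95 against 473, 401 and 417, a log2 difference of 0.86, and without the libraries numbered 3 the difference was 0.23.

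The set also held 4 zinc-finger genes, Zfp97 (180% of control), Zfp709 (152%), Zfp715 (148%) and Zfp948 (152%), and the olfactory receptor gene Olfr1033 (162%). Genes of both families have close copies, so their counts are uncertain. Tmem170 (154%), Fam122b (156%) and Klhl15 (153%), for which roles are less settled, made up the rest. Tmem170 had the smallest p of the higher genes, at 62.2, 68.1 and 94.9 in control_TNF and 123, 116 and 109 in SoxC_KO_TNF. Log2 differences of the 15 ran from 0.59 to 0.86, with a median of 0.66 and unadjusted limma p from 0.0141 to 0.215.

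**Figure D3:**
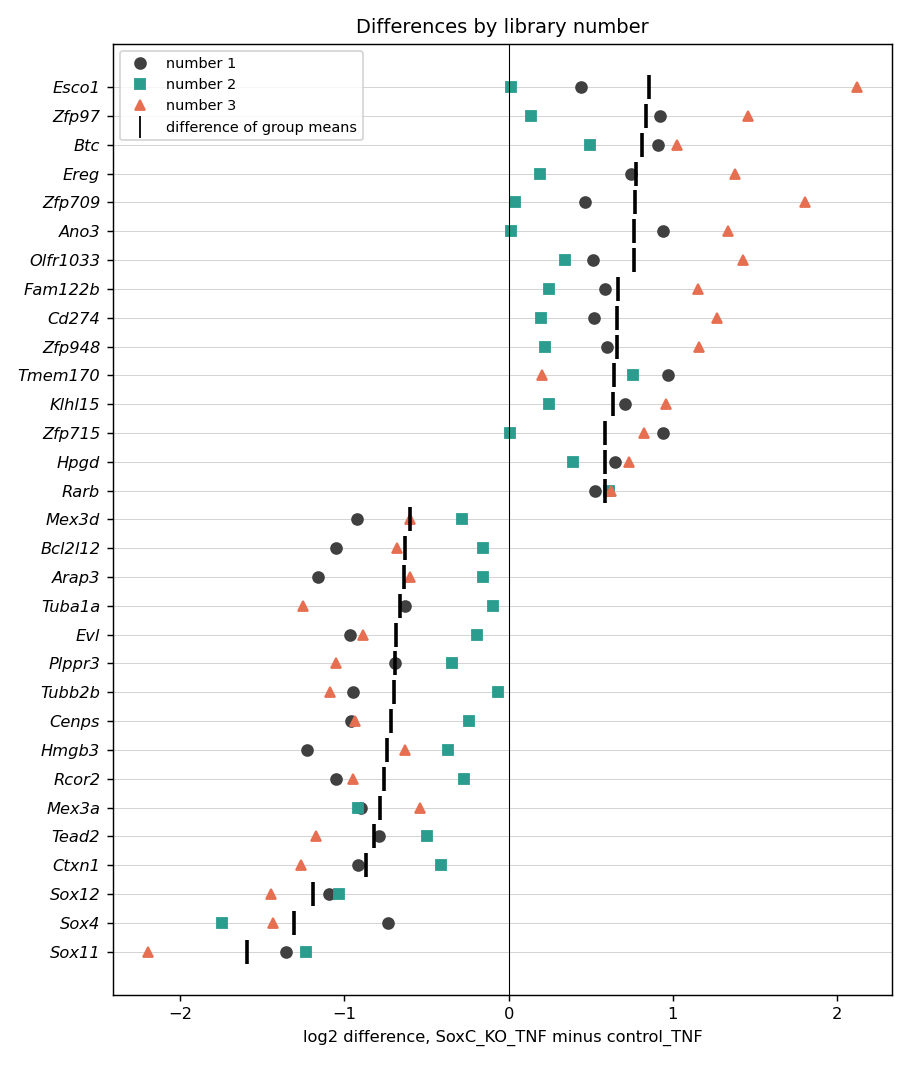
Log2 difference, SoxC_KO_TNF minus control_TNF, for Sox11 and the 15 named genes in each direction, with 1 point for each library number and a bar for the difference of group means. All points lie on 1 side of 0, and number 2 gave the smallest difference in 13 of the 15 lower and 13 of the 15 higher genes.

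The differences were uneven across library numbers. Number 2 gave the smallest difference in 13 of the 15 lower genes and in 13 of the 15 higher genes. Number 3 gave the largest in 6 lower and in 13 higher genes. Without the libraries numbered 3, the log2 difference of Ereg was 0.47, of Zfp709 0.25, of Zfp97 0.53, of Zfp948 0.41, of Fam122b 0.42, of Olfr1033 0.43, of Ano3 0.48 and of Tuba1a -0.36, while those of Btc (0.71) and Mex3a (-0.91) were near their values with all libraries. Without the 2 libraries with liver transcripts that of Arap3 was -0.38.

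In the libraries without TNF most of the same genes were not separated in the same direction. Of the 15 lower genes, 3 were also separated and lower without TNF (Sox4, Mex3a and Hmgb3), 11 had the same sign, and the median was -0.19. Mex3a without TNF was at 360, 433 and 293 normalized counts in control and 264, 273 and 150 in SoxC_KO. Cenps was separated in the opposite direction, at 77.2, 52.3 and 78.2 in control and 93.8, 96.8 and 106 in SoxC_KO. Of the 15 higher genes, 0 were separated and higher without TNF, 2 had the same sign, and the median was -0.40. Ereg without TNF was at 2530, 2635 and 1840 in control and 2082, 2666 and 664 in SoxC_KO, with SoxC_KO replicate 3 the lowest.

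Over all separated genes, 11 of the 386 lower with TNF were also separated and lower without TNF (2.85%, against 1.92% of all genes compared), and 5 of the 470 higher were separated and higher (1.06%, against 2.24%). The limma interaction test called 0 of 17123 genes lower (0%) and 0 higher (0%), with 142 lower (0.829%) and 96 higher (0.561%) at an unadjusted p under 0.05. Adjusted p values of the interaction for the genes named here were 0.877 or above.

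GC content moved with these differences. The median GC content of the transcripts was 49.3% over all genes compared, 55.4% in the separated lower genes and 44.5% in the separated higher genes, and 57.2% against 40.2% in the 15 named genes of each direction. Across 17099 genes, which are not independent and share the same 6 libraries, Spearman's correlation of the knockout difference with GC content was -0.519. By library number it was -0.403 for number 1, 0.172 for number 2 and -0.531 for number 3, and without TNF it was 0.590. In the decile of genes with the lowest GC content the median log2 difference with TNF was 0.30, and in the decile with the highest it was -0.25.

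**Figure D4:**
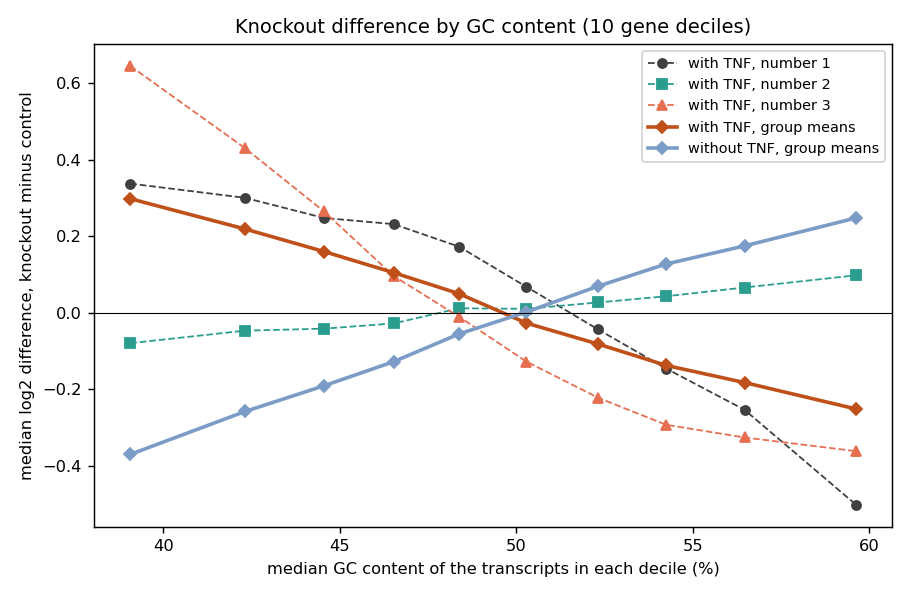
Median log2 difference, knockout minus control, against median GC content (%) of transcripts in 10 deciles of genes, for each library number with TNF (dashed) and for group means with and without TNF (solid). The group means fall from 0.30 to -0.25 with TNF and rise from -0.37 to 0.25 without TNF, while number 2 runs from -0.08 to 0.10.

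A correction of each library for GC content and transcript length, chosen after the data were seen, brought the correlation with GC content to -0.00. It left 159 of the 386 lower and 200 of the 470 higher genes separated. Of the 15 named genes, 14 lower and 8 higher were separated after it, all kept their sign, and the medians were -0.52 and 0.45. Together with the replicate block, again with 0 genes called, the 3 smallest p values among all genes were those of Sox4, Sox12 and Sox11, with adjusted p of 0.156, 0.288 and 0.367. The fourth was Mt1 (adjusted p = 0.372), and Tead2 ranked 5, Tubb2b 7, Ctxn1 9 and Mex3a 12, all with adjusted p of 0.597. Corrected log2 differences were -1.33 for Sox4, -1.85 for Sox11, -0.98 for Sox12, -0.63 for Tead2, -0.78 for Mex3a, 0.46 for Ereg and 0.48 for Btc. Among the named lower genes the correction moved the difference by more than 1.5 times for Rcor2 (to -0.48), Plppr3 (-0.44), Evl (-0.40), Bcl2l12 (-0.41) and Mex3d (-0.32). Among the higher genes it did so, besides Ereg and Btc, for Zfp97 (0.54), Zfp709 (0.40), Zfp715 (0.30), Klhl15 (0.27), Fam122b (0.40), Olfr1033 (0.38), Ano3 (0.40) and Esco1 (0.53).

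Among 5 genes reported as SOXC targets elsewhere, 4 were compared and 2 were separated, both lower (2.25% of all genes were). Besides Tead2 this was Tubb3, a neuronal beta-tubulin, at 873, 819 and 1171 normalized counts in control_TNF and 704, 685 and 585 in SoxC_KO_TNF, or 68.9% of control (log2 difference -0.52). The Tubb3 difference was -0.29 after the GC and length correction and -0.28 without the libraries numbered 3. The log2 differences of the others were -0.03 for Map2, a microtubule-associated protein gene, and 0.07 for Ezh2, a histone methyltransferase gene. Among 14 compared genes of neurons and axon growth, 3 were separated and lower (Tubb2b, Tubb3 and Crmp1, against 2.25% of all genes) and 6 were lower at all 3 library numbers (10.1% of all genes). The list's median was -0.52 against -0.00 for all genes and -0.33 after the GC and length correction. Crmp1, an axon guidance protein gene, was low throughout, at 25.9, 19.8 and 39.5 in control_TNF and 12.9, 12.9 and 17.5 in SoxC_KO_TNF. The axonal genes Mapt and Stmn4 were at -0.94 and -1.06 with overlapping groups, and Gap43 was at -0.19. Ncam1 and L1cam, of the same list, were at 0.13 and 0.08, so not all members were lower. By library number the list's median was -0.39, -0.34 and -0.85, largest for number 3.

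Snap25, a synaptic vesicle fusion gene, had a log2 difference of -1.95 (SE 0.58) at a low level. It was at 16.9, 17.4 and 36.9 normalized counts in control_TNF and 7.12, 3.87 and 4.53 in SoxC_KO_TNF, and was also separated and lower without TNF, at 22, 13.3 and 43.6 in control and 10.4, 11.8 and 2.68 in SoxC_KO. With TNF, Snap25 reached a count of 10 only in the 3 control_TNF libraries and was kept through them alone. Its separation with TNF therefore follows from the filter. The Schwann cell gene Cdh19 went the other way, at 348, 494 and 220 against 505, 507 and 598, or 152% of control with TNF. Its log2 difference of 0.67 was 0.33 after the GC and length correction and 0.29 without the libraries numbered 3. Of the 8 compared markers of Schwann cells and neurons these were the 2 separated (2.25% lower and 2.74% higher over all genes).

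Within the YAP, TAZ and TEAD list, Tead2 was the only one of 20 genes that was separated. Log2 differences of the other TEAD genes were 0.42 for Tead1, -0.20 for Tead3 and 0.08 for Tead4, all with overlapping groups. Those of the coactivator genes were -0.04 for Yap1 and 0.21 for Wwtr1, which encodes TAZ, and the target genes Ctgf and Cyr61 were at -0.09 and -0.05. Further members of the list lay on both sides of 0, all with overlapping groups. Arhgap29 was at 0.66, Ankrd1 at 0.41, F3 and Crim1 at 0.20, Amotl2 at -0.04 and Ajuba at -0.17. The median of the whole list was 0.06. Of 10 compared SOX genes outside the SOXC group, 0 were separated (2.25% lower and 2.74% higher over all genes) and 5 were higher at all 3 library numbers (10.3% over all genes), with a median of 0.33. Sox9, a regulator of cartilage formation, was at -0.00, and Sox5 and Sox6, which encode its SOXD partners, were at 0.45 and 0.87.

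In lists of the inflammatory response to TNF the counts of separated genes were near the shares over all genes, 2.25% lower and 2.74% higher, and say nothing particular of these lists. Of 21 chemokine genes, 0 were separated, and the median log2 difference was -0.06. Cxcl5, a neutrophil attractant and the one with the highest mean count, was at 74307, 60026 and 58344 normalized counts in control_TNF and 66148, 63441 and 58376 in SoxC_KO_TNF, a log2 difference of -0.03 (SE 0.15). Under quantile normalization that difference was 0.02, and after the GC and length correction it was -0.16. Of 24 NF-kB subunit and feedback genes 0 were separated, with a median of 0.07. Nfkbia, the gene of the NF-kB inhibitor IkB alpha, was at 5697, 4967 and 6347 against 5157, 5429 and 5886 (-0.04, SE 0.21), and at 0.12 after the GC and length correction.

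Other immune lists gave like counts. Of 18 genes of the TNF family and its receptors 0 were separated, and Tnfrsf12a, the TWEAK receptor gene, ran from 3925 to 12564 normalized counts in control_TNF and from 2357 to 9900 in SoxC_KO_TNF (log2 difference -0.59, and -0.33 after the GC and length correction). Of 36 interferon-stimulated genes 0 were separated, with a median of 0.07, and Bst2, which encodes the antiviral protein tetherin, was at -0.37 (SE 0.37) and at -0.15 after that correction. Of 19 antigen presentation genes 0 were separated, with a median of -0.22. After the correction that median was -0.10, and by library number it was -0.50, 0.16 and -0.37, so number 2 went the other way. B2m, the common light chain of MHC class I, was at 27322, 21939 and 30078 against 24160, 24220 and 28523. Among 22 cytokines and growth factors Il7, a lymphocyte survival cytokine, was separated and higher, at 97.4, 121 and 89.1 against 151, 126 and 157, or 141% of control. After the GC and length correction its difference went from 0.50 to 0.16.

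**Figure D5:**
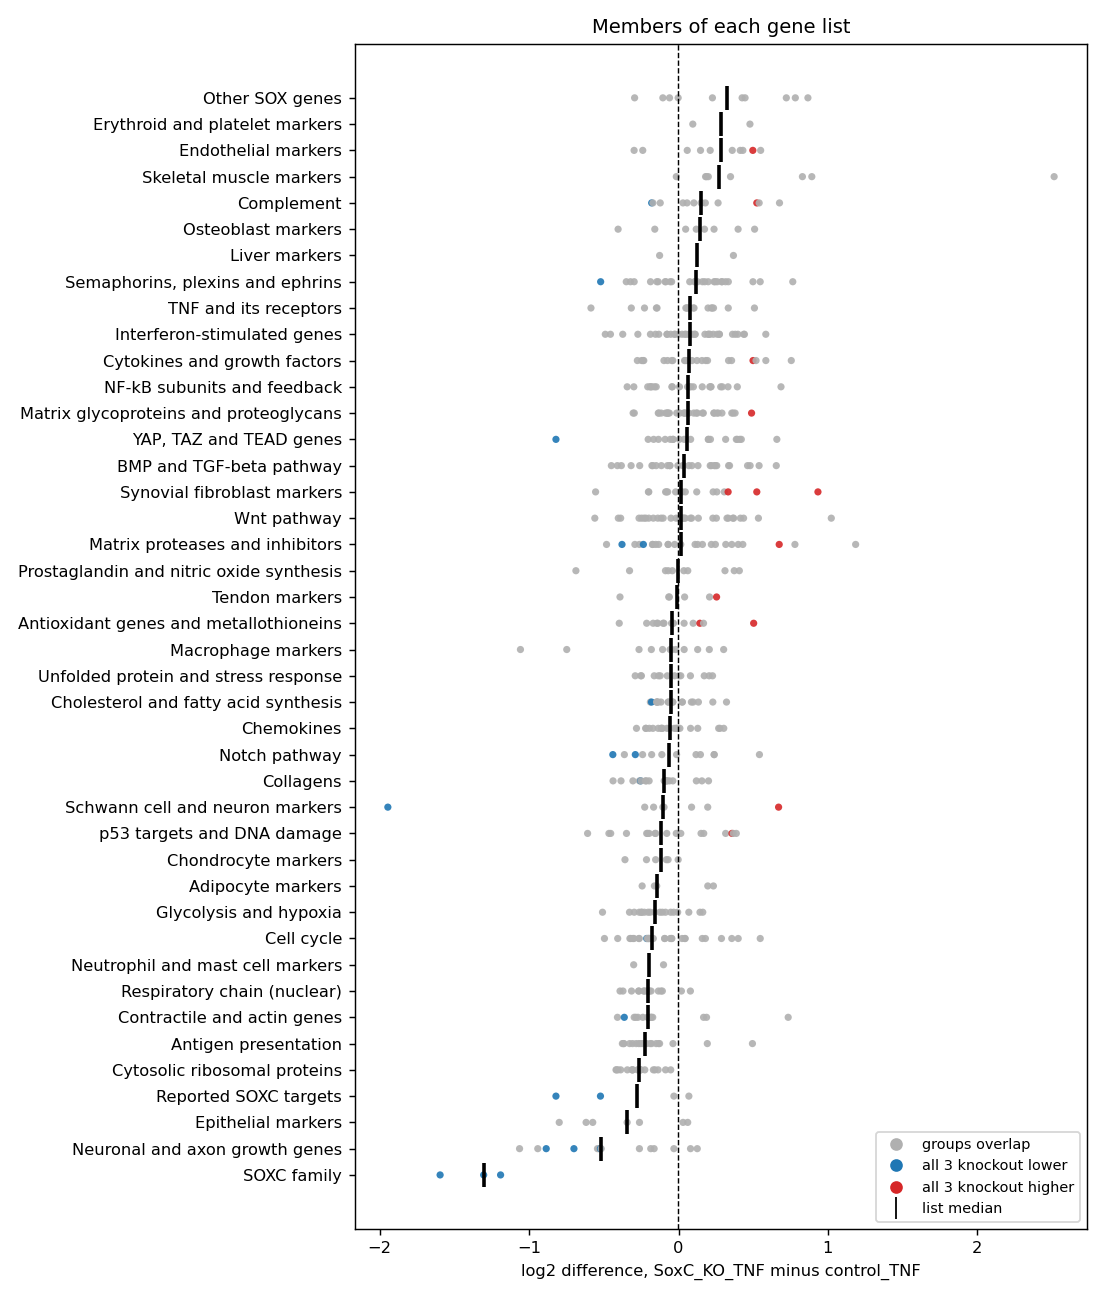
Log2 difference, SoxC_KO_TNF minus control_TNF, of each compared gene by gene list, with a bar at the list median, colour where the 2 groups did not overlap and a dashed line at the median of all genes. The SOXC genes lie from -1.60 to -1.19, the neuronal and axon growth genes have a median of -0.52, and the NF-kB and chemokine lists have medians of 0.07 and -0.06.

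Matrix genes gave few separated members, to be set against 2.25% lower and 2.74% higher over all genes. Among 25 matrix proteases and inhibitors, the stromelysin-3 gene Mmp11 (432, 384 and 494 normalized counts in control_TNF against 282, 355 and 371 in SoxC_KO_TNF) and Mmp19 (2228, 2241 and 2356 against 2154, 2036 and 1645) were separated and lower. Mmp1a, a mouse interstitial collagenase gene, was separated and higher at a low level, at 51.7, 44.4 and 36.6 against 66, 56.1 and 94.4. The log2 difference of Mmp11 was -0.38, and -0.18 after the GC and length correction. Without the libraries numbered 3 that of Mmp19 went from -0.24 to -0.094 and that of Mmp1a from 0.67 to 0.34. Mmp3 and Mmp13, proteases that degrade proteoglycan and cartilage collagen, were at log2 differences of -0.07 and 0.25 with overlapping groups. Of 19 collagens Col18a1, a basement membrane collagen gene, was separated and lower, at 8000, 8263 and 8612 against 6652, 7795 and 6483. It was at 84.1% of control, and its log2 difference of -0.25 went to -0.05 after the GC and length correction. In all, 7 of the 19 collagens were lower at all 3 library numbers (10.1% of all genes) and 0 were higher (10.3%), with a median of -0.10.

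Among 31 matrix glycoproteins and proteoglycans Ogn, which encodes osteoglycin, was separated and higher, at 446, 440 and 338 normalized counts in control_TNF and 619, 456 and 651 in SoxC_KO_TNF. Its log2 difference of 0.49 was 0.16 after the GC and length correction and 0.26 without the libraries numbered 3. Of 18 synovial fibroblast markers 3 were separated, all higher (2.74% of all genes were). Of these, Dpp4 reached a count of 10 only in the 3 SoxC_KO_TNF libraries and was kept through them alone. Its separation therefore follows from the filter and adds nothing to that count. Cd55, a complement-regulating surface protein of lining fibroblasts, was at 445, 527 and 280 against 604, 573 and 565, or 139% of control. Clic5 was at 74.6, 89.5 and 68.5 against 99.7, 91.9 and 100, and Dpp4, a marker of universal fibroblasts, was low at 7.96, 9.77 and 5.4 against 15.5, 11.6 and 19.6. After the correction the Clic5 difference went from 0.33 to 0.11. Without the libraries numbered 3 that of Cd55 went from 0.52 to 0.28 and that of Dpp4 from 0.93 to 0.56. Pi16 and Cd34, which stand beside Dpp4 in that list, did not follow it, at log2 differences of -0.56 and -0.07 with overlapping groups. The lubricin gene Prg4 and the sublining marker Thy1 were at -0.09 and -0.20 with overlapping groups. Complement factor B (Cfb) was separated and lower, at 88.3% of control, and its log2 difference of -0.18 was -0.080 after the correction.

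In other pathways, Mt1, a metal-binding metallothionein gene, was separated and higher, at 6963, 5781 and 7715 normalized counts in control_TNF and 10526, 8705 and 9648 in SoxC_KO_TNF, or 141% of control (log2 difference 0.50, SE 0.24, and 0.32 without the 2 libraries with liver transcripts). Without TNF its difference was 0.55, with overlapping groups at 4543, 5381 and 6392 in control and 6263, 6888 and 11366 in SoxC_KO. The glutathione synthesis gene Gclm was also separated and higher, at 110% of control, and its log2 difference of 0.14 was -0.17 after the GC and length correction. The p53 target Ccng1, which encodes cyclin G1, was at 18803, 21608 and 18403 against 23277, 22383 and 30206, or 129%. Its log2 difference of 0.36 was 0.097 after the correction and 0.18 without the libraries numbered 3.

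Of 30 cell cycle genes 9 were lower at all 3 library numbers (10.1% of all genes) and 1 was higher (10.3%), with a median of -0.18. The replicative helicase gene Mcm7 was separated, at 979, 917 and 948 normalized counts in control_TNF and 913, 875 and 684 in SoxC_KO_TNF, and its log2 difference of -0.21 was -0.11 after the GC and length correction and -0.085 without the libraries numbered 3. The proliferation marker Mki67 was at 0.55 with overlapping groups. Of 12 compared Notch genes 2 were separated, both lower (2.25% of all genes were). These were Hey1, an effector, and Dll1, a ligand, at 74.3% and 80.6% of control. Dll1 was low, at 36.5 to 56.9 normalized counts, and Hey1 differed by only -0.09 at number 1. The list's median was -0.06, and 0.08 after the GC and length correction, and Hey2 was at 0.54 with overlapping groups. Among semaphorins, plexins and ephrins Plxnb1, a semaphorin receptor gene, was at 262, 303 and 257 against 193, 210 and 170, or 69.6%. The smooth muscle actin-nucleating gene Lmod1 was separated and lower at 78.6% of control. Fdft1, the squalene synthase gene, was separated and lower at 87.6%, with controls at 1443, 1436 and 1863 against 1406, 1389 and 1356. The tendon gene Tnmd (118%) and the endothelial gene Vwf (143%) were separated and higher, each 1 of its list (2.74% of all genes were). The 6 compared tendon genes had a median of -0.01 and the 10 endothelial genes one of 0.29. Vwf was low, at 25.9, 25.3 and 23.7 normalized counts in control_TNF against 31, 38.7 and 37.8 in SoxC_KO_TNF. Without the libraries numbered 3 the log2 difference of Dll1 went from -0.29 to -0.12 (-0.18 after the correction), that of Fdft1 from -0.18 to -0.043 and that of Tnmd from 0.25 to 0.086. The lists of Wnt genes (34 compared) and of BMP and TGF-beta genes (29 compared) had 0 separated members, with medians of 0.02 and 0.04, and Inhba, the activin A subunit gene, was at 20261, 32989 and 14014 against 31586, 27076 and 22001. The Inhba difference of 0.34 was -0.012 after the correction.

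Lists of housekeeping genes showed how far abundant genes differed between the groups. The 19 cytosolic ribosomal protein genes had a median log2 difference of -0.27, from -0.42 to -0.05, and 0 were separated. By library number the list's median was -0.55, 0.26 and -0.51, so the libraries numbered 2 went against the other pairs. The 17 nuclear genes of the respiratory chain had a median of -0.20 and 19 glycolysis and hypoxia genes one of -0.16, with 0 separated in both. By library number the respiratory median was -0.40, 0.16 and -0.35. After the GC and length correction the medians were -0.15 (ribosomal), -0.13 (respiratory chain) and -0.04 (glycolysis and hypoxia). Without TNF and without that correction they were 0.24, 0.13 and 0.17 in the same order. The ribosomal RNA gene CT010467.1, singled out after its values were seen, took 0.985%, 1.28% and 1.47% of the normalized total in control_TNF and 0.743%, 0.784% and 0.413% in SoxC_KO_TNF. Its groups did not overlap, and its part in the other differences was not tested.

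Of the promoter motifs, AACAAAG occurred in 12 of 250 separated lower genes with a promoter (4.8%), in 1.99% of 302 separated higher genes and in 4.27% of all 11407. AACAAT occurred in 4.4% of the lower genes, 9.27% of the higher genes and 6.77% of all. Of the 15 named lower genes 12 had a promoter in the table, of which 1 held AACAAAG, the Tead2 promoter, and 0 held AACAAT. The separated lower and higher genes differ in GC content as given above, and these shares are a description only.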

How the data were processed

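Poly(A) RNA was sequenced as paired reads on a NovaSeq from cultured cells, per the labels' protocols. The authors deposited 1 table of log2 normalized counts for 53341 genes and 12 libraries, with values at or under 1 listed as 0. The submitters' processing notes name mm10 as the build and DESeq as a tool. Aligner, annotation and strand setting were not given in the sources used. Whole reads could not be recovered, so no count model was run. The depth estimate reads the commonest low value as 1 read pair and is rough, and low genes are less precise in shallower libraries.

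Values were converted back from log2 and analysed as log2(normalized count + 1), which understates the differences of low genes. Genes were kept that reached 10 in 3 or more of the 6 libraries with TNF. limma 3.58.1 in R 4.3.3 was fitted with 1 mean per group to all 12 libraries, with an intensity trend and Benjamini-Hochberg adjustment at 0.05. The fit was also run on simulated data with independent scatter for each gene. Those data lack the scatter that whole libraries share here, so that run does not show how the fit performs on these libraries. Figures used Python 3.11.15 and matplotlib 3.10.9. Of the gene identifiers, 53236 (99.8%) were found in GENCODE M21, which gave GC content and transcript length. The correction added after seeing the data regressed each library on natural splines of both (5 and 3 degrees of freedom). Pseudocount 8, no filter or a minimum of 50, quantile and equal-median normalization, array weights, a replicate block and left-out libraries were the alternatives.

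Members and 43 gene lists were chosen with earlier results of these data known. Named genes were Sox4, Sox11 and Sox12, and up to 15 per direction with the smallest p among separated genes with a 1.5-fold difference and a mean of 100, leaving out clone names, numbered gene models, pseudogenes and antisense genes (28 lower and 18 higher were eligible). From each list up to 4 separated members, or else its most abundant one, were named, and a few of these were omitted for brevity. Other list members and marker genes given with values were chosen after their values were seen.

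Whether replicate numbers pair the libraries was checked on deviations from the group means. Same-numbered libraries correlated at 0.112, 0.261 and 0.573, each over the cutoff of 0.1, so the numbers were read as pairs. This rests on the gene filter, since on the 18139 genes kept by the same filter over all 12 libraries the values were 0.0537, 0.189 and 0.526. Also, SoxC_KO_TNF replicate 1 correlated more with control_TNF replicate 2 (0.432). The pairing comes from the numbers in the titles and this check alone.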

Additional observations from a re-analysis of the deposited data

How the results depend on the processing

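The count of genes with adjusted p under 0.05 stayed at 0 under the replicate block, in the fit of the 6 libraries alone, with either pseudocount, filter, scaling or array weights, and without any 1 library. The exception was leaving out the 2 libraries with liver transcripts, which gave 1 gene for the knockout difference with TNF and 1 for the interaction, both Fam219aos, an antisense gene singled out after its values were seen (44.0, 1.78 and 41.7 in control_TNF, 23.9, 0 and 0 in SoxC_KO_TNF). The replicate block, which pairs libraries by number, changed no call (0 genes). Counts of separated genes, 386 lower and 470 higher, were 713 and 772 without a filter, 1711 and 2231 without the 4 libraries numbered 3, 2610 and 2820 without the 2 with liver transcripts, and 652 to 2172 and 765 to 2454 with 1 library left out, most without control_TNF replicate 2. Fewer libraries overlap less often by construction. Equal library medians gave 453 lower and 401 higher. Array weights, estimated gene by gene because the restricted maximum likelihood estimate did not converge, gave 2191 lower and 2213 higher genes at an unadjusted p under 0.05, with 0 called.

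Among 63 named genes, 5 changed sign under some setting, and the other log2 differences kept theirs. Under quantile normalization B2m was at 0.075, Cxcl5 at 0.024 and Nfkbia at 0.039. With 1 library left out B2m ran from -0.17 to 0.062, Cxcl5 from -0.094 to 0.080 and Nfkbia from -0.13 to 0.044. After the GC and length correction, with and without the replicate block, Inhba was at -0.012, Nfkbia at 0.12 and Gclm at -0.17. The cause was not tested. Depth limits low genes most, such as Snap25 at 3.87 to 36.9 normalized counts.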

Other observations

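Of the genes that belong to no list above, 5 that were separated and lower in SoxC_KO_TNF are described here, chosen after their values were seen, so they stand for no group. The list of semaphorins, plexins and ephrins, which does not hold them, had 1 of 28 genes separated and lower (2.25% of all genes were). Its median log2 difference was 0.12. The semaphorin genes Sema6c and Sema3g, which encode guidance ligands, had means of 127 and 135 normalized counts in control_TNF and 74 and 88.2 in SoxC_KO_TNF, with same-number log2 differences of -0.58, -0.48 and -1.21 for Sema6c and -0.61, -0.45 and -0.80 for Sema3g. Efna4, an ephrin ligand gene, had means of 126 and 80.7. Jup, the plakoglobin gene of cell junctions, had means of 585 and 393 with same-number differences of -0.55, -0.14 and -1.27, and Pth1r, the parathyroid hormone receptor gene, means of 142 and 86.4 with differences of -0.73, -0.03 and -1.35. The limma adjusted p was 0.997 for each of these 5 genes. After the GC and length correction the log2 differences with TNF were -0.52 for Sema6c, -0.51 for Sema3g, -0.43 for Efna4, -0.44 for Jup and -0.43 for Pth1r, and without the libraries numbered 3 those of Jup and Pth1r were -0.34 and -0.38. Without TNF the log2 differences between SoxC_KO and control were 0.15 for Sema6c, 0.11 for Sema3g, -0.09 for Efna4, -0.08 for Jup and 0.17 for Pth1r.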
